A study of Mus musculus with 4 samples.

Results

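The 5 genes described here, *Tctex1d4*, *Ccdc153*, *1700026L06Rik*, *Cdhr3* and *AU040972*, were chosen by their values in these libraries. Among genes outside the *Olfr* (odorant receptor) and *Taar* (trace amine-associated receptor) families that reached 10 TPM (a transcript abundance corrected for transcript length and scaled to the library total) in any library, they had the highest shared increase in reporter-positive cells of 2 transgenic mouse lines. Shared increase means the smaller of the gene's 2 differences in log2(TPM + 1), 1 in each line. They are 5 of 24421 genes with values and 5 of the 12285 genes that met both conditions. Because that contrast chose them, their increases are given below as a description.

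RNA-seq was performed on cells of the main olfactory epithelium (MOE) sorted by FACS from C57BL/6 mice labelled as adult. The study's reporting form instead gives younger animals, with an age range that differs between the lines, and mixed strain backgrounds. The TAAR enhancer 1-GFP transgenic line gave GFP-positive and GFP-negative cells, and the TAAR enhancer 2-tdTomato transgenic line gave tdTomato-positive and tdTomato-negative cells. In both lines a PiggyBac transgene placed 1 enhancer from the *Taar* gene cluster before a minimal *Hsp68* promoter and the reporter gene, 1 founder line was kept, and the reporter-negative cells came from mice with the same transgene. Each of the 4 groups has 1 library, so no difference has a replicate check and no test was made. In the paper the sort served to ask whether each enhancer is specific for olfactory sensory neurons that express *Taar* genes. By in situ hybridization the paper also reported that most reporter-positive neurons of each line carried label from *Taar* probes.

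Each library sums to 1000000 TPM, so its depth is unknown, and between 15096 and 16840 genes were above 0. The *Taar* genes together reached 804.1 TPM with GFP and 86.1 TPM without it, and 3476 TPM with tdTomato and 60.8 TPM without it. The 10 highest genes took 31.5% of the GFP-positive library and between 5.72% and 9.44% of each of the other libraries.

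Multiciliated cells line the respiratory part of the nasal cavity and beat many motile cilia. A motile cilium is built on an axoneme, in which dynein arms slide microtubule doublets, and in which radial spokes, a central pair, the nexin-dynein regulatory complex and proteins inside the doublets keep the beat in order. Its genes are switched on by the transcription factor Foxj1 together with factors of the RFX family. Olfactory sensory neurons (OSNs) also carry cilia, which hold the odorant receptors and share the intraflagellar transport machinery with motile cilia. Of the 5 genes, *Tctex1d4* encodes a dynein light chain of the Tctex1 family and *Ccdc153* a subunit of the nexin-dynein regulatory complex. *1700026L06Rik*, annotated as *Spaca9*, encodes a protein found inside axonemal doublets and in the sperm acrosome. *Cdhr3* encodes a cadherin-related surface protein of ciliated airway cells that is known as the receptor of rhinovirus C. *AU040972* is a long noncoding RNA with no role given here.

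The promoter windows of the 5 genes are shown first, because they lie on 5 chromosomes and a short element recurs in them. The sequences are from RefSeq on GRCm38.p6, written 5′ to 3′ on the strand of the gene, and end before the first annotated exon. They cover chr4:117126563-117126793 on the plus strand for *Tctex1d4*, chr9:44240427-44240675 on the plus strand for *Ccdc153*, chr2:28699728-28699901 on the minus strand for *1700026L06Rik*, chr12:33092876-33093125 on the minus strand for *Cdhr3* and chr11:79484032-79484281 on the minus strand for *AU040972*. Capitals mark GTTGCC or GTTACC on either strand, the half-site forms of the X-box element that RFX factors bind.
Tctex1d4: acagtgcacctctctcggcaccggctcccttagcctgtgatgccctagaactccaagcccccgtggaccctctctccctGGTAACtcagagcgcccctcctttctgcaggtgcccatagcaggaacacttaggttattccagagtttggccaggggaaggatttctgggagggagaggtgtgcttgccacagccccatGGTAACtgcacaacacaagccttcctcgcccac
Ccdc153: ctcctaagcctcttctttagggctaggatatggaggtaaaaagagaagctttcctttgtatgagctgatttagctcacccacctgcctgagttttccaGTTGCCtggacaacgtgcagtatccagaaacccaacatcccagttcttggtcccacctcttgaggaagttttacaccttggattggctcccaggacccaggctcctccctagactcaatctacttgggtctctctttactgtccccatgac
1700026L06Rik: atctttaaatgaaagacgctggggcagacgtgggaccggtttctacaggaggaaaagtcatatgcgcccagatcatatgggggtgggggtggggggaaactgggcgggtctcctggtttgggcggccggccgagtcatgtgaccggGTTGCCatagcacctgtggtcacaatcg
Cdhr3: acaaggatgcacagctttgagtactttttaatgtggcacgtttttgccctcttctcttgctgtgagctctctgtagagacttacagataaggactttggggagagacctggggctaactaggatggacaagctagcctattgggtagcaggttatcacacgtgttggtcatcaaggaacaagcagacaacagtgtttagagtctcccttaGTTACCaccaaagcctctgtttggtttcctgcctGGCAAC
AU040972: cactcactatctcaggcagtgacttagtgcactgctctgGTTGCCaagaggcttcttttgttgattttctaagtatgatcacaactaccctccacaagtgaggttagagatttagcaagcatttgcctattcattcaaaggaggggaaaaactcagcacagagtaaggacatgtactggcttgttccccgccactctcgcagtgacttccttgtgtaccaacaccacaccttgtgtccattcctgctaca

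All 5 windows held at least 1 of the 2 forms, against 18.6% of the 32851 RefSeq promoter windows of 27025 genes searched in the same way over 250 bases before and 50 bases after the start site. GTTGCC stood in 4 of the 5 windows and in 12.5% of all windows. GTTACC stood in 2 of the 5 and in 7.21% of all windows. The forms were chosen after the 5 sequences had been seen and no test was made. The *Ccdc153* match lay 152 bases before the RefSeq start site, that of *1700026L06Rik* 104 bases and that of *AU040972* 211 bases, all on the strand of the gene. *Tctex1d4* had matches at 171 and 52 bases, both on the other strand, and *Cdhr3* had matches at 40 and 6 bases, 1 on each strand. Before other ciliary genes the share varied by list, with 75% of 8 windows of the nexin-dynein regulatory complex, 75% of 12 windows of multiciliated fate regulators, 73.7% of 19 windows of tektins and other proteins inside the doublets, 66.7% of 12 windows of multiciliated cell markers and 50% of 22 windows of intraflagellar transport genes. It was 50% of 14 windows of radial spoke and central pair genes, 41.2% of 17 windows of dynein arm genes and 33.3% of 6 windows of Tctex1 light chains. In the cadherin-related family 0 of 3 windows held 1 of the forms. They stood in 23.1% of 13 windows of mature OSN markers. Small lists varied, and 4 of 5 windows of erythroid markers held a form, while 0 windows did so in the lists of Bowman gland, respiratory secretory, horizontal basal, globose basal, and tuft cell and ionocyte markers. The share was 14.3% of 7 windows of sustentacular markers and 25% of 4 windows of macrophage markers. The forkhead element TGTTTAC, searched because Foxj1 is a forkhead factor, stood in 0 of the 5 windows and in 3.65% of all windows.

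**Figure D1:**
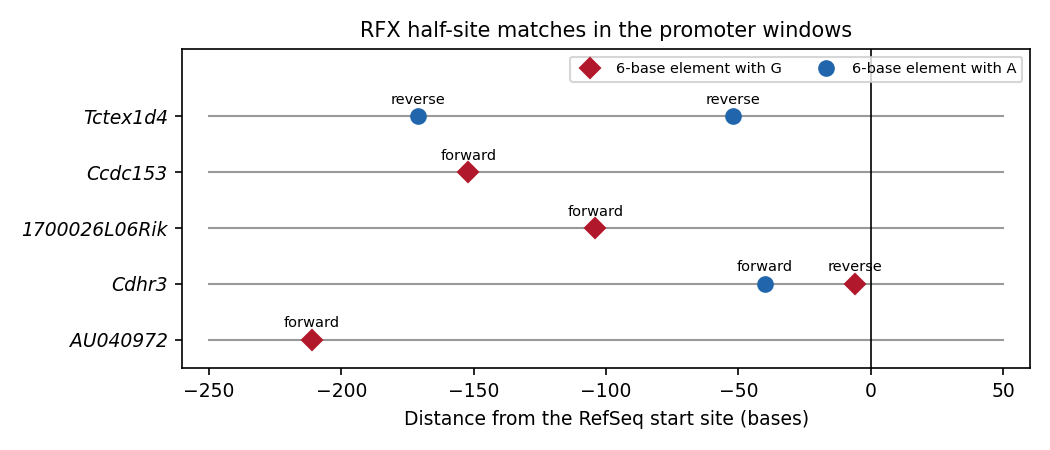
Positions of the RFX half-site forms in the promoter windows of the 5 genes, in bases from the RefSeq start site (0), with each grey line running from 250 bases before to 50 bases after it. Diamonds mark the form with G and circles the form with A, and the strand is relative to the gene. Each of the 5 windows holds a match, between 6 and 211 bases before the start site.

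*Tctex1d4* was listed at 0 TPM in GFP-negative and in tdTomato-negative cells, at 145.5 TPM in GFP-positive cells and at 351.1 TPM in tdTomato-positive cells. Both reporter-positive libraries were thus high and both reporter-negative libraries were at 0, so no fold is given. The difference in log2(TPM + 1) was 7.19 in the GFP line and 8.46 in the tdTomato line. The gene lies at chr4:117126794-117128738 on the plus strand (GENCODE M21, GRCm38), with 3 annotated transcripts of 2 to 4 exons. Of its 1111 exon bases, 84 overlap *Plk3* on the minus strand, a kinase gene that was lower in reporter-positive cells, at 39.4 and 6.20 TPM in GFP-negative and GFP-positive cells and 61.6 and 7.02 TPM in tdTomato-negative and tdTomato-positive cells.

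Other Tctex1 light chains did not share this pattern. The light chains *Dynlt1b* and *Dynlt3*, which serve cytoplasmic dynein, were at 175.9 and 183.4 TPM in GFP-negative cells and at 76.2 and 139.7 TPM in GFP-positive cells. In the tdTomato line *Dynlt1b* was at 129.4 and 155.5 TPM and *Dynlt3* at 171.7 and 259.8 TPM in reporter-negative and reporter-positive cells. *Tctex1d2*, a light chain of the dynein that drives intraflagellar transport, was at 69.4, 88.8, 83.0 and 191.8 TPM in the order GFP-negative, GFP-positive, tdTomato-negative and tdTomato-positive. The log2 differences of the 4 other family members with 10 TPM in any library, which include *Dynlt1a*, lay between -2.11 and 0.35 in the GFP line and between -0.23 and 1.20 in the tdTomato line. Signs close to 0 depend on the scaling here and below, since 3 other scalings of the libraries moved the median of all genes up by 0.48 to 2.93 in the GFP line and by 0.05 to 0.96 in the tdTomato line. Under the scaling to mature OSN markers, *Nf1* and *Cdhr1*, given here as lower in reporter-positive cells, were higher in both lines, and *Plk3* and *Efhc2* were higher in the GFP line. *Tctex1d1* and *Dynlt1f* stayed under 10 TPM, and *Tcte3* and *Dynlt1c* were listed at 0 in every library.

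*Ccdc153* was at 0 TPM in GFP-negative, 582.8 TPM in GFP-positive, 13.6 TPM in tdTomato-negative cells against 2009.8 TPM in tdTomato-positive cells. It was the highest of the 5 among the increases in the GFP line, at 9.19 in log2(TPM + 1), and its difference in the tdTomato line was 7.11. In the tdTomato line the level in positive cells was 148.3 times that in negative cells. In tdTomato-positive cells *Ccdc153* was the 32nd highest gene. The gene lies at chr9:44240676-44247306 on the plus strand with 9 transcripts of 3 to 7 exons, and no other annotated gene overlaps it.

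The other 10 subunits of the nexin-dynein regulatory complex were read from a list of the complex. Of these, 3 were at least 4-fold higher on the log2(TPM + 1) scale in the reporter-positive cells of both lines, as were 4.14% of the 12285 genes. Here and in the lists below, a gene that reached 10 TPM only in reporter-positive cells could not be counted as lower, so the counts are descriptions. *Iqca*, a subunit with an ATPase domain, was the nearest to *Ccdc153*, at 0.386 and 46.9 TPM in the GFP line and 0.0213 and 197.1 TPM in the tdTomato line, log2 differences of 5.11 and 7.60. *Fbxl13* differed by 2.78 and 3.06 and *Tcte1* by 2.15 and 4.01. The core subunits *Drc1* and *Gas8*, which anchor the complex to the doublet, were already at 194.2 and 160.7 TPM in GFP-negative cells and at 104.7 and 63.1 TPM in GFP-positive cells. In the tdTomato line *Drc1* was at 174.9 and 396.3 TPM and *Gas8* at 111.0 and 141.7 TPM. *Ccdc65* differed by -1.06 and 0.93, *Lrrc48* by 0.24 and 1.61, *Iqcg* by 0.07 and 1.39, *Iqcd* by 0.04 and 1.80, and *Drc7* by -0.03 and 2.21. The median of the 10 was 0.06 in the GFP line and 1.71 in the tdTomato line, beside -0.87 and -0.19 over the 12285 genes. Subunits of 1 complex thus differed in their reporter-negative level from 0 to 194.2 TPM.

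*1700026L06Rik* was at 0 TPM in both reporter-negative libraries, at 116.6 TPM in GFP-positive cells and at 364.2 TPM in tdTomato-positive cells. The log2(TPM + 1) differences were 6.88 and 8.51. It was the lowest of the 5 in GFP-positive cells, and its profile over the 4 libraries lay closest to *Ldlrad1* and *Tctex1d4*. The gene lies at chr2:28692080-28699727 on the minus strand with 4 transcripts of 3 to 5 exons.

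Proteins inside the doublets gave a range of patterns. Of 17 tektins and other microtubule inner proteins with 10 TPM in any library, 6 were at least 4-fold higher in both lines, beside 4.14% of all 12285 genes. *1700026D08Rik*, annotated as *Cfap161*, was at 3.47 and 101.4 TPM in the GFP line and at 0.0529 and 286.5 TPM in the tdTomato line. *Cfap45* was at 4.59 and 99.4 TPM and at 15.1 and 291.9 TPM. *Cfap20*, which also occurs in immotile cilia, was at 425.1 and 199.7 TPM and at 317.1 and 543.2 TPM, and *Efhc2* was lower in both lines, by 1.28 and 1.06 on the log2 scale. The median of the 17 was 0.56 in the GFP line and 3.30 in the tdTomato line.

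*Cdhr3* was at 0.288 TPM in GFP-negative, 182.9 TPM in GFP-positive, 5.40 TPM in tdTomato-negative cells against 748.1 TPM in tdTomato-positive cells. Positive cells held 635.6 times the level of negative cells in the GFP line and 138.5 times in the tdTomato line, and the differences in log2(TPM + 1) were 7.16 and 6.87. A level near 0.3 TPM may rest on few reads, and the depth is unknown. *Cdhr3* spans chr12:33033796-33092875 on the minus strand with 4 transcripts of 2 to 20 exons. The small RNA gene *Gm22904* lies inside it on the other strand and shares 0 exon bases with it. Of its relatives, *Cdhr1*, a photoreceptor cadherin, was lower in reporter-positive cells, at 121.2 and 19.6 TPM in the GFP line and 162.6 and 82.0 TPM in the tdTomato line. *Cdhr2*, a cadherin of brush borders, was listed at 0 in every library, and *Cdhr5*, its partner there, stayed under 1 TPM.

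*AU040972* was at 3.27 TPM in GFP-negative, 1341 TPM in GFP-positive, 20.4 TPM in tdTomato-negative cells against 2339 TPM in tdTomato-positive cells. It had the highest level of the 5 in every library. Positive cells held 409.7 times the level of negative cells in the GFP line and 114.8 times in the tdTomato line, log2(TPM + 1) differences of 8.29 and 6.77. Among 2002 genes that RefSeq types as long noncoding RNA, *AU040972* was the highest in both reporter-positive libraries and ranked 342 in GFP-negative and 97 in tdTomato-negative cells. Over all genes it ranked 45 in GFP-positive and 24 in tdTomato-positive cells. Of 275 such noncoding RNAs with 10 TPM in any library, 22 were at least 4-fold higher in both lines, beside 4.14% of the 12285 genes. The next after *AU040972* was *D430036J16Rik*, with differences of 5.08 and 5.65.

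*AU040972* lies at chr11:79481719-79484031 on the minus strand, with 1 transcript of 4 exons, inside the gene *Nf1* on the plus strand. None of its 1042 exon bases is an exon base of *Nf1*. *Nf1*, a regulator of Ras signalling, was lower in reporter-positive cells, at 12.7 and 5.10 TPM in the GFP line and at 30.0 and 20.6 TPM in the tdTomato line. Whether the quantification used strand is not given in the sources used here, so reads from introns of *Nf1* and from *AU040972* cannot be told apart.

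**Figure D2:**
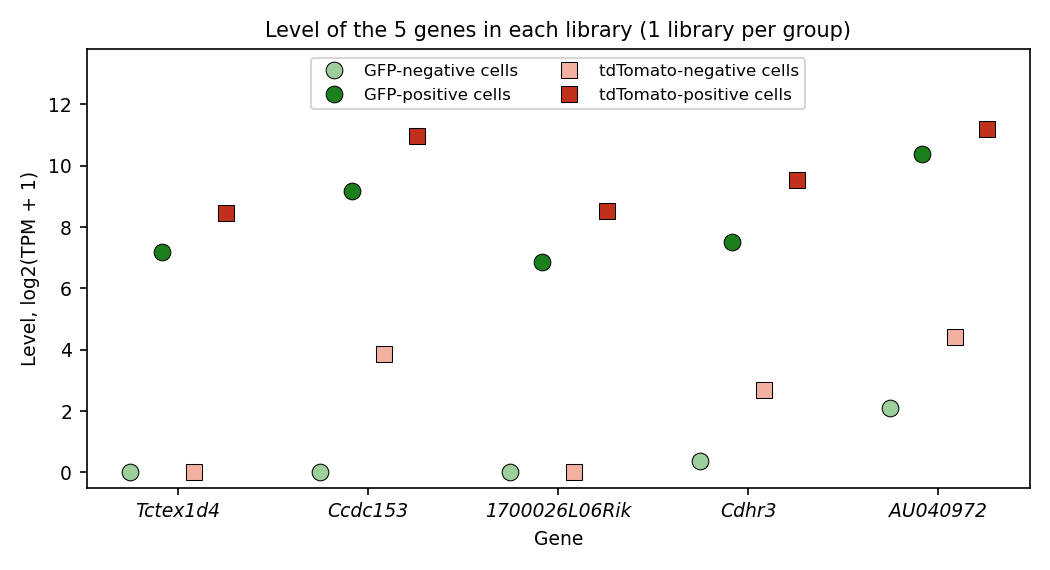
Level of each of the 5 genes in the 4 libraries as log2(TPM + 1), 1 point per library, with circles for the GFP line, squares for the tdTomato line, pale for reporter-negative and dark for reporter-positive cells. For every gene both dark points lie above both pale points, and *AU040972* is the highest of the 5 in each library.

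The 5 genes summed to 3.56 TPM in GFP-negative, 2369 TPM in GFP-positive, 39.3 TPM in tdTomato-negative cells against 5813 TPM in tdTomato-positive cells. The medians of their log2 differences were 7.19 in the GFP line and 7.11 in the tdTomato line. By construction all 5 were at least 4-fold higher in both lines, as were 4.14% of the 12285 genes (509 genes). In the GFP line alone 7.7% of those genes were at least 4-fold higher and in the tdTomato line alone 7.36%. *AU040972*, at 6.77, was the last inside the set of 5 and *Plet1*, a surface protein gene, at 6.74, was the first outside it. *1700001C02Rik*, *Ldlrad1*, *Lhb* and *Sntn* followed, with smaller differences between 6.34 and 6.60. *Sntn* encodes sentan, a protein of the ciliary tip, and *Lhb* a hormone subunit of the pituitary. The set of 5 is thus the top of a continuous order, and its membership depended on the pseudocount. With a pseudocount of 0.1, *Ccdc153*, *Cdhr3* and *AU040972* ranked 42, 45 and 53, and with a pseudocount of 10, *Cdhr3*, *Tctex1d4* and *1700026L06Rik* ranked 9, 13 and 18.

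**Figure D3:**
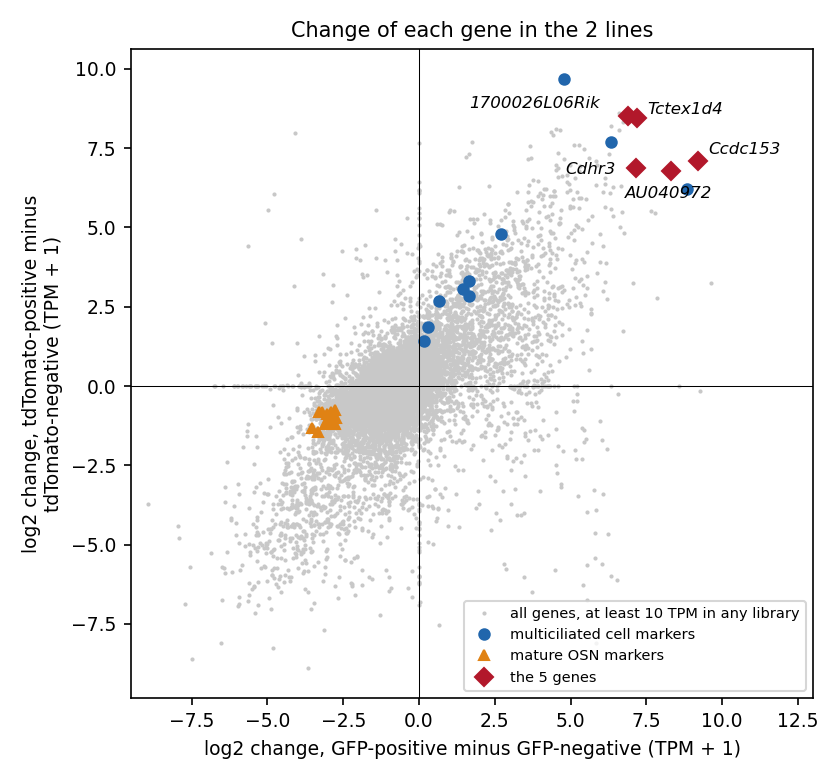
Difference in log2(TPM + 1) between reporter-positive and reporter-negative cells in the GFP line (horizontal) and the tdTomato line (vertical) for 12285 genes outside the receptor families, with at least 10 TPM in any library. Diamonds are the 5 genes, circles 10 multiciliated cell markers, and triangles 12 mature OSN markers, which are lower in both lines.

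The 5 genes were not alike in the order of their increases. In the GFP line the difference ranked 3 for *Ccdc153*, 6 for *AU040972*, 10 for *Tctex1d4*, 11 for *Cdhr3* and 13 for *1700026L06Rik*. In the tdTomato line it ranked 3 for *1700026L06Rik*, 4 for *Tctex1d4*, 28 for *Ccdc153*, 35 for *Cdhr3* and 38 for *AU040972*. The 2 genes at 0 in both reporter-negative libraries, *Tctex1d4* and *1700026L06Rik*, had the larger difference in the tdTomato line, by 1.27 and 1.63 on the log2 scale, an order that turned under the scaling to mature OSN markers, with 9.30 and 8.39 for *Tctex1d4* and 8.99 and 8.45 for *1700026L06Rik* in the GFP and tdTomato lines. For *Ccdc153*, *AU040972* and *Cdhr3*, which were above 0 in tdTomato-negative cells, the difference was smaller in the tdTomato line, by 2.08, 1.52 and 0.29, but with a pseudocount of 10 it was larger there for *Ccdc153* (5.89 and 6.42) and *Cdhr3* (4.23 and 5.62). A value of 0 may be a failed estimate as well as a true absence, since between 5 and 10 of 100 ribosomal protein genes were listed at 0 in each library. Of the 509 genes at least 4-fold higher in both lines, 78 were at 0 in both reporter-negative libraries.

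Across the 4 libraries the profiles nearest to each gene were measured by the root mean square distance between log2(TPM + 1) values centred on the gene's mean. For *Tctex1d4* they were *1700026L06Rik* at 0.146, *1700001C02Rik* at 0.256 and *Ldlrad1* at 0.285. For *1700026L06Rik* they were *Ldlrad1* at 0.139, *Tctex1d4* at 0.146 and *1700001C02Rik* at 0.187. *Ccdc153* was nearest to *Tmem212*, a marker of multiciliated cells, at 0.353, and then to *AU040972* at 0.716 and *Nme9* at 0.779. *Cdhr3* was nearest to *Fam216b* at 0.293, *Gm867* at 0.400 and *Spata18* at 0.401. *AU040972* was nearest to *Cdhr3* at 0.505, *Fam216b* at 0.617 and *4833427G06Rik* at 0.679. Within the set the distance ranged from 0.146, for *Tctex1d4* and *1700026L06Rik*, to 1.39, for *Tctex1d4* and *Ccdc153*. Only 4 libraries enter each distance, so likeness here describes 1 contrast in each line.

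The 10 multiciliated cell markers were all higher in reporter-positive cells of both lines, and 4 of them at least 4-fold in both. Of the 12285 genes, 21.9% were higher in the GFP line, 39.8% in the tdTomato line and 4.14% at least 4-fold in both. The median log2 difference of the 10 markers was 1.66 in the GFP line and 3.19 in the tdTomato line. Their summed level was 1086, 3257, 971.6 and 9503 TPM in GFP-negative, GFP-positive, tdTomato-negative and tdTomato-positive cells. *Tmem212* was at 0.0988 and 506.9 TPM in the GFP line and at 21.6 and 1689 TPM in the tdTomato line, close to *Ccdc153* in all 4 libraries. *1110017D15Rik* had the smallest increase of the 10 in either line, 0.17 and 1.42. *Mlf1* was at 283.4 and 346.8 TPM and at 259.0 and 944.5 TPM. The factor gene *Foxj1* was at 126.3 and 302.2 TPM in the GFP line and at 114.3 and 975.5 TPM in the tdTomato line, log2 differences of 1.25 and 3.08. *Rfx2*, of the RFX family, was at 35.9 and 27.9 TPM in the GFP line and at 42.2 and 89.5 TPM in the tdTomato line, differences of -0.35 and 1.07, of which the first was 0.51 under median-ratio scaling. *Rfx3* of the same family was at 75.9 and 20.0 TPM and at 88.9 and 100.9 TPM, differences of -1.87 and 0.18. *Ccdc67*, annotated as *Deup1*, whose protein builds the platform on which centrioles multiply, was at 0 TPM in both reporter-negative libraries and at 21.6 and 24.4 TPM in GFP-positive and tdTomato-positive cells. *Trp73*, a factor upstream of *Foxj1*, differed by 2.35 and 3.10.

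Over 73 other genes with 10 TPM in any library from the lists of Tctex1 light chains, the nexin-dynein regulatory complex, dynein arms, radial spokes and central pair, doublet proteins and multiciliated cell markers, the median level of reporter-negative cells was 35.9 TPM in the GFP line and 37.1 TPM in the tdTomato line, and that of reporter-positive cells was 57.5 and 191.8 TPM. Of these 73, 49 were higher in GFP-positive cells, 68 were higher in tdTomato-positive cells and 21 were at least 4-fold higher in both lines. Over the 12285 genes the shares were 21.9% in the GFP line, 39.8% in the tdTomato line and 4.14% for at least 4-fold in both. The level of *Tctex1d4* in GFP-positive cells was exceeded by 15 of the 73 and its level in tdTomato-positive cells by 20.

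By part of the axoneme, 5 of 17 dynein arm genes were at least 4-fold higher in both lines, with medians of 1.21 and 3.19. The share over the 12285 genes, for this and the other counts of this kind below, was 4.14%. *Dnah6*, a heavy chain of the inner arms, was at 0.00280 and 37.6 TPM in the GFP line and at 3.05 and 246.8 TPM in the tdTomato line. *Dnah5*, a heavy chain of the outer arms, was at 1.55 and 45.4 TPM and at 7.75 and 354.0 TPM. All 17 dynein arm genes were higher in tdTomato-positive cells, beside 39.8% of the 12285 genes. In GFP-positive cells 12 were higher, beside 21.9%, and 5 were lower. *Dnah11*, another outer arm heavy chain, differed by -1.28 and 0.96, and *Ccdc151*, which docks the outer arms, by -0.57 and 0.59. Of 15 radial spoke and central pair genes 3 were at least 4-fold higher in both, among them the central pair genes *Cfap221* and *Spag17*, and the medians were 0.22 and 2.20. *Cfap69* was at 404.7 and 114.4 TPM in the GFP line and at 406.7 and 446.1 TPM in the tdTomato line, and *Spef2*, of the same list, differed by -1.85 and -0.14. None of 27 intraflagellar transport genes was at least 4-fold higher in both, and their medians were -0.82 and 0.69, of which the first was 0.06 under median-ratio scaling. *Dync2li1*, a chain of the transport dynein, differed by 0.40 and 2.05, *Ttc30a1* by 0.41 and 0.16, *Ift80* by -1.62 and 0.04, and *Kifap3*, a subunit of the kinesin motor, by -1.74 and -0.42.

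**Figure D4:**
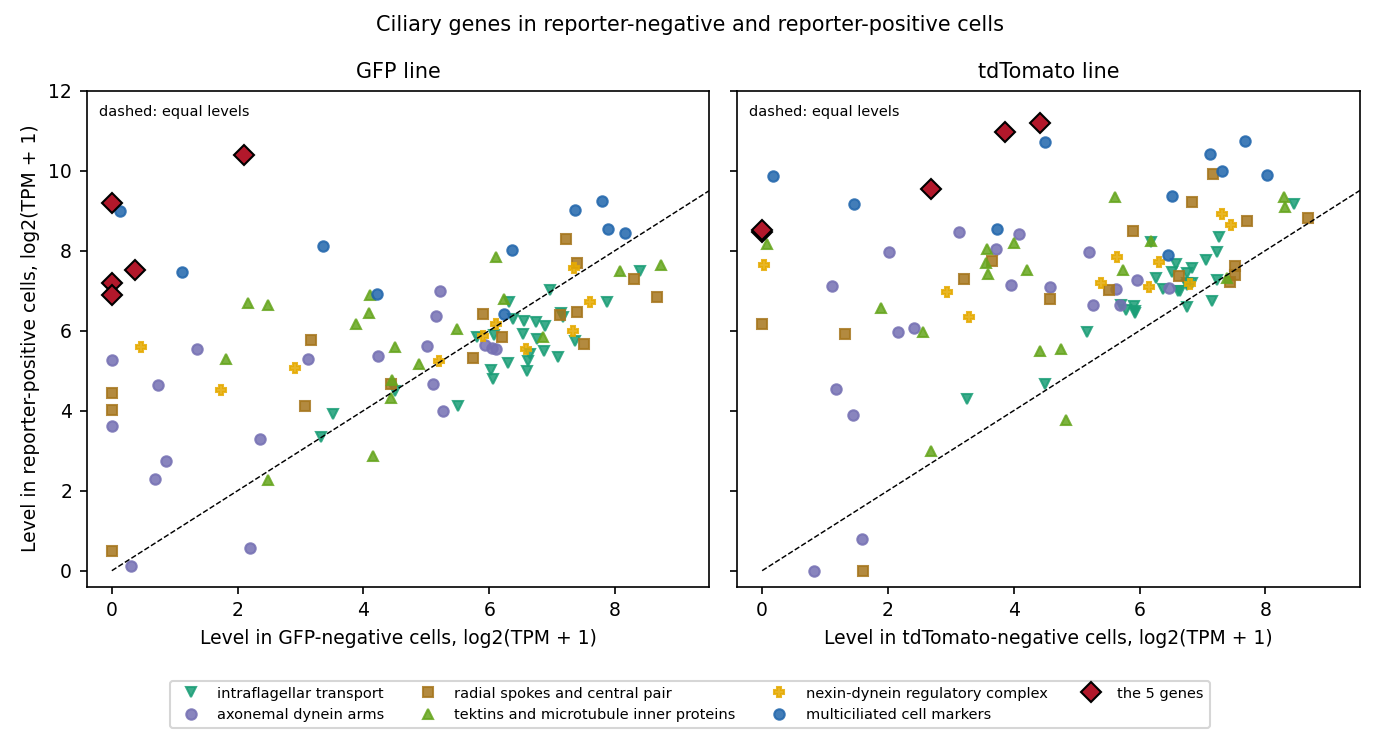
Level in reporter-negative (horizontal) and reporter-positive (vertical) cells as log2(TPM + 1), for the GFP line (left) and the tdTomato line (right), 1 point per gene, with the dashed line at equal levels. *Tctex1d4* and *1700026L06Rik* lie at 0 on the horizontal axis in both panels, *Ccdc153*, *Cdhr3* and *AU040972* reach 13.6, 5.40 and 20.4 TPM in tdTomato-negative cells, and the intraflagellar transport genes lie nearer to the dashed line than the 5 genes.

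Between the 2 reporter-positive libraries, a comparison the rule did not use directly, all 5 genes were higher in tdTomato-positive cells. The ratio of tdTomato-positive to GFP-positive level was 1.74 for *AU040972*, 2.41 for *Tctex1d4*, 3.12 for *1700026L06Rik*, 3.45 for *Ccdc153* and 4.09 for *Cdhr3*. The median over all genes outside the receptor families with 10 TPM in any library and above 0 in both was 1.73. *AU040972* thus stood at that median and the other 4 above it. Over the 504 other genes at least 4-fold higher in both lines the median was 2.10 and the middle 50% lay between 1.22 and 3.37. Beside these *AU040972* was below the median, *Tctex1d4* and *1700026L06Rik* were within the middle 50%, and *Ccdc153* and *Cdhr3* were above it. Over all genes outside the receptor families the middle 50% lay between 1.17 and 2.53, and 81.2% were above 1. Multiciliated cell markers had ratios between 2.54 and 3.35, with a median of 2.83, and the 73 motile-cilia genes had a median of 2.95. Mature OSN markers had a median of 4.18. The ratios of sustentacular, Bowman gland and respiratory secretory markers had medians of 0.565, 0.429 and 0.899. The ratios compare 1 library of each line, and the line, the reporter, the enhancer and any difference in age cannot be told apart.

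**Figure D5:**
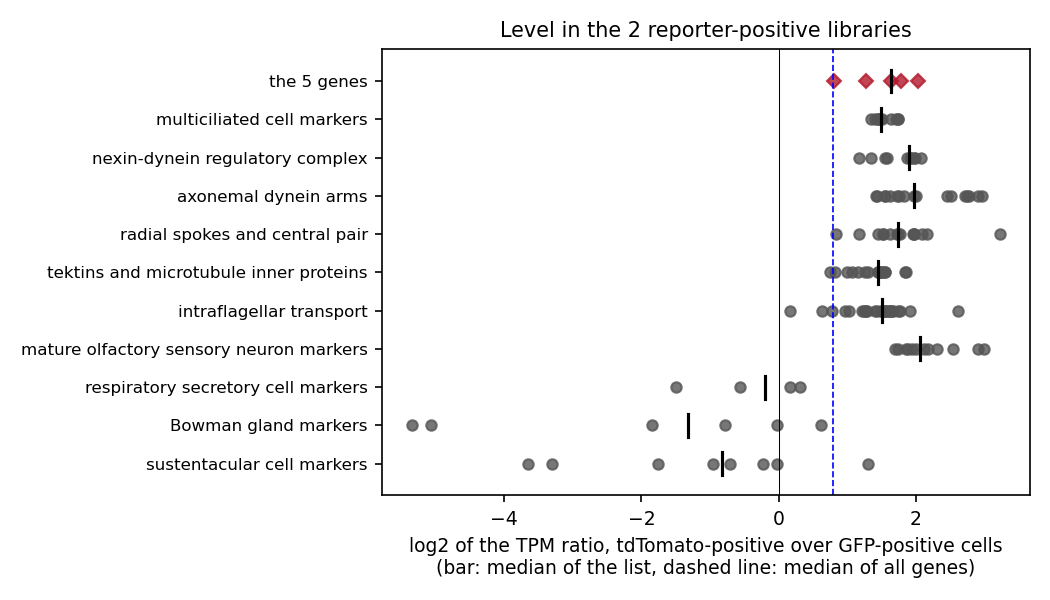
Ratio of the level in tdTomato-positive to that in GFP-positive cells on a log2 axis, 1 point per gene, by gene list, with the median of each list as a bar. The dashed line is the median of all genes outside the receptor families with 10 TPM in any library and above 0 in both, a ratio of 1.73. The ratios of the 5 genes run from 1.74 to 4.09, and those of the multiciliated cell markers from 2.54 to 3.35.

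Markers of other cell types also differed between the libraries, by list median. They were higher in both lines for respiratory secretory, Bowman gland and sustentacular cells, although the sustentacular markers *Cyp2g1* and *Cyp1a2* were lower in the tdTomato line. They were lower in both for mature OSNs, globose basal cells, macrophages and the erythroid list. Horizontal basal cell markers were opposite in the 2 lines. The pooled list of tuft cell and ionocyte markers was mixed, with values given below. The part of these cell types in the differences of the 5 genes was not tested. Of the list medians below, those of globose basal cells in the GFP line and of tuft cells and ionocytes in the tdTomato line turned positive under the scaling to mature OSN markers, which by construction also sets the OSN markers near 0. All 12 mature OSN markers were lower in reporter-positive cells of both lines, with medians of -3.02 and -1.02 and summed levels of 28264 and 3131 TPM in the GFP line and 29123 and 13119 TPM in the tdTomato line. Most genes were lower too, since 21.9% of the 12285 genes were higher in the GFP line and 39.8% in the tdTomato line. *Omp*, the marker of mature OSNs, was at 9584 and 1108 TPM and at 10108 and 4427 TPM. Respiratory secretory markers were higher, 4 of 4 at least 4-fold in both lines, with medians of 5.80 and 3.05. Beside this and the Bowman gland and sustentacular counts below, 4.14% of the 12285 genes were at least 4-fold higher in both lines. *Bpifa1*, a secreted airway defence protein, was at 640.7 and 43136 TPM and at 6643 and 53377 TPM. *Scgb3a1* differed by 7.06 and 3.25, *Bpifb1* by 5.53 and 3.10 and *Reg3g* by 5.46 and 2.86. The secretory marker *Scgb1a1* was listed at 0 in every library. Of 6 Bowman gland markers 5 were at least 4-fold higher in both lines, with summed levels of 1720 and 68936 TPM in the GFP line and 242.5 and 2059 TPM in the tdTomato line, and *Bpifb9b* alone was at 1304 and 55039 TPM in the GFP line. Of 8 sustentacular cell markers 3 were at least 4-fold higher in both, with medians of 2.92 and 0.90, the second 0.36 after rescaling without the highest genes. All 8 were higher in the GFP line, but only 6 in the tdTomato line, where *Cyp2g1* differed by -1.54 and *Cyp1a2* by -1.67. Horizontal basal cell markers had medians of 2.90 and -2.04, globose basal cell markers -1.09 and -2.22, tuft cell and ionocyte markers 2.05 and -0.32, and macrophage markers -3.38 and -1.02. In the pooled tuft cell and ionocyte list, the tuft cell genes *Trpm5* and *Pou2f3* were lower in both lines, by -0.11 and -4.49 and by -1.66 and -1.44. The ionocyte genes *Ascl3* and *Cftr* differed by 3.05 and 0.35 and by 3.41 and 0.15. The 4 hemoglobin genes of the erythroid list were at 0 in every library, and *Alas2* was lower in reporter-positive cells of both lines, by 3.54 and 1.93 on the log2 scale. In bulk libraries of this kind, fewer cells of a type and less RNA per cell cannot be told apart.

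Sequence shared with other genes was also examined. Of the 50-base windows along the annotated transcripts of the 5 genes (746 for *1700026L06Rik* to 4566 for *Cdhr3*), 0 occurred on the same strand in a transcript of another gene. On the opposite strand 35 of the 1150 windows of *Tctex1d4* occurred in *Plk3*, where the genes overlap, and 0 of the windows of the other 4 genes occurred in any transcript.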

How the data were processed

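Cells of the MOE were sorted from 2 transgenic reporter lines, and the authors deposited TPM values of 24421 genes in 4 libraries, 1 per group. The submitters' processing notes name Trimmomatic 0.36, Salmon 1.4.0 and mm10, whereas the study's methods name Hisat2, Cufflinks and featureCounts; which gave the TPM, and the gene annotation, are not given in the sources used here. The labels and the methods also name different RNA and library kits. TPM values carry no depth, so no interval or detection limit was calculated.

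Differences are log2(TPM + 1) of reporter-positive minus reporter-negative cells within a line; a pseudocount understates the change of low genes. Genes with 10 TPM in any library and outside the *Olfr* and *Taar* families were ordered by the smaller difference. At least 4-fold means a difference of 2 on that scale. The genes, lists and alternatives were chosen with earlier results of these data known. Named genes were the 5, the next 5 in the order, the 3 nearest profiles of each, all of the 3 families, and from each other list the 2 highest and 2 lowest (for lists of other cell types, given mostly by their medians), with *Foxj1*, *Omp*, *Bpifa1* and *Bpifb9b*. *Plk3*, *Nf1*, *Gm22904*, *D430036J16Rik* and *Scgb1a1* were named for position, type or cell type, after their values were seen. Not matched to a row were *Cdhr4*, *Dnah3*, *Dnah12*, *Rsph10b* and *Cfap54*. Positions are from GENCODE M21 (GRCm38), and promoters and gene types from RefSeq (GRCm38.p6), for all 5 genes. The calculation was tested on simulated data. Python 3.11.15, NumPy 2.4.6, pandas 2.3.3 and matplotlib 3.10.9 were used.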

Additional observations from a re-analysis of the deposited data

Results flagged for a closer look

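In the opposite direction in the 2 lines, by at least 2-fold on the log2(TPM + 1) scale in each, were 8 of the list genes, none of them among the 5. The difference between the lines was not tested, since each group has 1 library. The median of the horizontal basal cell markers was 2.90 in the GFP line and -2.04 in the tdTomato line. Of these, *Krt5* differed by 3.58 and -1.72, *Krt14* by 2.90 and -2.21, *Krt15* by 4.75 and -2.04, and *Trp63* by 2.17 and -1.45. The sustentacular cell genes *Cyp1a2* and *Cyp2g1* differed by 3.02 and -1.67 and by 2.06 and -1.54, and the mucin gene *Muc2* by 1.38 and -1.48. Of the motile-cilia lists, the radial spoke gene *Rsph9* differed by -1.01 and 1.03. Its GFP-line difference was smaller than the shift of 2.93 under the scaling to mature OSN markers, so its sign there depends on the scaling.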

How the results depend on the processing

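The 5 genes kept the direction of their increase in both lines under every pseudocount and scaling run, with log2 differences between 3.66 and 12.51, but their place in the order did not hold. Of the 5, 2 stayed among the 5 highest with a pseudocount of 0.1, 2 with a pseudocount of 10, 3 with median-ratio scaling over 11943 genes, 2 after rescaling without the 24 highest genes and 2 with scaling to the mature OSN markers, while all 5 stayed under both other TPM minimums. Their median in the GFP line was 10.19 with a pseudocount of 0.1, 4.23 with 10, 7.83 with median-ratio scaling, 7.80 after rescaling and 9.43 with OSN scaling, and in the tdTomato line 5.62 with a pseudocount of 10 and 8.04 with OSN scaling. The median of the multiciliated cell markers was 2.54 with median-ratio scaling and 4.70 with OSN scaling in the GFP line, and 4.22 with OSN scaling in the tdTomato line. Genes at least 4-fold higher in both lines numbered 186 with a pseudocount of 10, 316 with a minimum of 50 TPM and 1611 with OSN scaling, against 509. Median-ratio, rescaling and OSN scaling moved the median of all genes by 0.84, 0.48 and 2.93 in the GFP line and by 0.15, 0.05 and 0.96 in the tdTomato line, so the sign of family and list values within those shifts of 0 depends on the scaling. A fit over both lines with the line as a block would leave 1 residual degree of freedom and was not run, because its contrast chose the 5 genes. Depth is unknown, so levels near 0 have no stated precision.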
